A study of Mus musculus with 16 samples.

Results

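Long noncoding RNA regions were followed in whole mouse hearts after repeated encounters with an aggressor. The array carried 16251 probes that its design describes as lincRNA (long intergenic noncoding RNA), and a probe was taken up here where it was well above the background on all 16 arrays. That held for 3520 probes, 21.7% of the lincRNA probes. They lay in 2067 regions, a region being 1 interval of the mm9 genome build read on 1 strand, of the 4622 lincRNA regions on the array. The regions are called lincRNA regions detected in every heart below. They were chosen by the background flag of each spot, so their presence in every heart is a description and not a result. The flag demanded brightness in all 4 groups. No difference between groups was a criterion, but a probe that fell to the background in any group was left out. The choice thus limits the differences that dim regions could show.

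The 16 hearts came from C57BL/6 mice, 1 heart per array, in 4 groups of 4. T1R1, T2R1 and T3R1 stand for 1, 2 and 3 days with the aggressor, each followed by a rest of 1 day. Exposed mice spent part of each day in a mesh box within an aggressor's cage and were also briefly attacked by it. The controls sat in mesh boxes in a cage that held no aggressor. Their labels assign them to the 2-day arm with its 1-day rest, so that only T2R1 had a control of matching length. Group names set the groups here, since the protocol text of the labels describes longer exposures. All groups were of the same strain, the labels used here state no age, and total RNA was extracted with TRIzol. The study asked how repeated stress, as a model of posttraumatic stress disorder, changes heart transcripts.

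The layout of the arrays limits which comparisons can be read. Control and T3R1 arrays lay on slide 1, and T1R1 and T2R1 arrays on slide 2. T3R1 against control and T2R1 against T1R1 are comparisons within a slide. In every other comparison the slide and the exposure cannot be told apart. Control replicate 1 stood apart from its group: the 75th percentile of its spot intensities was 551 scanner units, against 258 to 273 on the other controls and 286 to 408 on the exposed arrays. Over the regions detected in every heart it correlated at 0.973 with the other controls and at 0.981 with T3R1. Between 46.5% and 67.1% of all spots, and between 25.8% and 52.4% of lincRNA spots, were well above background on an array. Results are given with and without that array where it decides them.

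Long intergenic noncoding RNAs are transcripts with no known protein product that lie between protein-coding genes. Some act in the nucleus, as scaffolds of nuclear bodies or as guides of chromatin modifiers, and others host small RNAs in their introns. Many are spliced and carry a poly(A) tail like messenger RNA, and their levels are usually lower and more tissue-restricted than those of messenger RNA. The intervals tiled by this array were named by position, and most have no gene name, so their function is not known from the files.

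The probes on which the results below turn were 60 bases long. Capitals mark each run of CCTC or CTCC on the probe strand, letters that were chosen after values had been seen. The probes of chr1:93812836-93816128_F, chr4:57372663-57377164_R, chr15:8463685-8494960_R, chr15:32167516-32174427_R and H19 hold none. The first 3 probes reported regions that differed between T3R1 and control within 1 slide.
chr1:93812836-93816128_F: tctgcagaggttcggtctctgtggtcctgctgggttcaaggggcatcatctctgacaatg
chr3:58496493-58601253_F: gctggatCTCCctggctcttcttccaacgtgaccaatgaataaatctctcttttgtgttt
chr1:52507332-52514490_R: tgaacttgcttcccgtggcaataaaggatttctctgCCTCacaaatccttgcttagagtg
The next 5 reported rises against control: the largest in T2R1, on chromosome 4, and 4 regions from among the 8 largest rises in T1R1, 3 of which were also among the 8 largest in T2R1.
chr4:57372663-57377164_R: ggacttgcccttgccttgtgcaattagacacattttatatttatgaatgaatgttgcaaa
chr3:52206874-52207385_F: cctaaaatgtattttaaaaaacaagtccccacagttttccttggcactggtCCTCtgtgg
chr15:99765243-99783300_F: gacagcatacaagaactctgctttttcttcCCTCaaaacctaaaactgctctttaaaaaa
chr13:62734450-62785325_F: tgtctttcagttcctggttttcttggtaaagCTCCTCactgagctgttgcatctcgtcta
chr2:67834535-67834914_F: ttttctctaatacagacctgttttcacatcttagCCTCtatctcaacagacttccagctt
The last 3 are a region that fell in T1R1 and T2R1, the region that holds the known noncoding RNA Snhg18, and H19.
chr15:8463685-8494960_R: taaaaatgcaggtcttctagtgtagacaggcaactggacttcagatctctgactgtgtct
chr15:32167516-32174427_R: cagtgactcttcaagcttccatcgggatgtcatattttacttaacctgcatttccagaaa
H19: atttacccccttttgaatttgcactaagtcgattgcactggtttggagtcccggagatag

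The suffix F or R gives the forward or reverse strand of the genome. The probe of H19 lies at chr7:149761693-149761752, that of the Snhg18 region at chr15:32170344-32170403, and that of chr1:52507332-52514490_R at chr1:52514123-52514182, all on the reverse strand. The probe of chr3:58496493-58601253_F, at chr3:58601194-58601253, covers the last bases of its interval.

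The regions were spread over the genome. They covered 1306 separate loci once overlapping intervals were joined, with 1040 regions on the forward strand and 1027 on the reverse. The median interval was 12626 bp long, the shortest 67 bp and the longest 533972 bp. Of the lincRNA regions the array holds on chromosome X, 32.2% were detected in every heart, the lowest share of any chromosome, and on chromosome 19 it was 56.4%, the highest. One probe was detected in 1267 regions and 2 or more in 800, and in 407 regions every probe of the array design was. The mean G+C content was 47.9% for the detected probes and 40.8% for the 4599 lincRNA probes that were above background on no array.

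At the detection limit, 1005 further lincRNA probes were well above background on 15 of the 16 arrays. T1R1 replicate 3 alone missed 882 of these, and it was the array with the lowest share of detected lincRNA spots. The median over probes of the median intensity was 134 scanner units for the detected probes and 39.1 for the probes that missed 1 array. Lowering the demand to 15 arrays would have given 4525 probes. Dropping control replicate 1 from the demand left the same 3520.

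Levels are given as log2 intensity relative to the 75th percentile of the same array, so that 0 is the brightness of that percentile. Differences are log2 differences between group means of 4 arrays with their standard error (SE), tested with limma over 22748 features and adjusted by Benjamini-Hochberg, and a region is called where the adjusted p is under 0.05. A region was represented by its brightest probe, which in 18 of the 2067 was a probe outside the 3520. All 2067 regions were tested, as the rule of detection is stricter than the filter.

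Within slide 1, T3R1 hearts differed from control in 8 of the 2067 regions, 0.387%, against 0.695% of all 22748 features. Of the 8, 7 rose, against 0.506% of all features, and 1 fell, against 0.189%. In all, 300 regions, 14.5%, had an unadjusted p under 0.05, against 22.4% of all features. The regions' median difference was -0.12, against -0.08 over all features. The share called is below that of all features.

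The largest rise was in chr1:93812836-93816128_F. Its levels were 1.02, -0.34, -0.26 and -0.09 in the controls, replicates 1 to 4, and 2.08, 1.60, 1.72 and 1.90 in T3R1. They were -0.22, -0.17, 0.02 and -0.02 in T1R1 and 0.40, 0.79, 0.63 and 0.71 in T2R1. All 4 T3R1 hearts lay above all other hearts, and control replicate 1 lay above the remaining controls. The difference from control was 1.75 (SE 0.23), 3.35-fold, with a limma adjusted p of 0.00978. Without control replicate 1 it was 2.06. A second probe of the region, detected on 13 arrays, differed by -0.17 with a limma adjusted p of 0.745.

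The region chr3:58496493-58601253_F covers the transcript 4930593A02Rik on the same strand. Control levels were -0.89, -1.59, -1.24 and -1.66, and T3R1 levels were 0.43, -0.41, 0.24 and -0.14. T1R1 hearts were at -1.24, -1.08, -1.35 and -1.08, within the range of the controls, and T2R1 hearts at -0.98, -0.61, -0.54 and 0.03. The groups control and T3R1 did not overlap, which the rule that named the region demanded. The rise was 1.37 (SE 0.23), 2.59-fold, with a limma adjusted p of 0.0232. The array's own probe for 4930593A02Rik followed the region with r = 0.92 over 16 arrays and rose by 1.02 in T3R1, with a limma adjusted p of 0.0176.

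The other 5 risers, chr8:122712014-122732520_R, chr10:94900849-94928059_R, chr12:106566735-106624460_R, chr9:65376063-65390480_R and chr10:120336296-120354471_F, rose by 1.10 (SE 0.23), 0.78 (SE 0.14), 0.73 (SE 0.12), 0.65 (SE 0.12) and 0.65 (SE 0.10). Their limma adjusted p-values were 0.0422, 0.0266, 0.024, 0.0271 and 0.0173. In each of the 7 risers the T2R1 mean lay between the means of control and T3R1, with T2R1 differences of 0.30 to 0.87 and T1R1 differences of -0.18 to 0.22. These differences share the same control arrays, and the 7 were named for their rise in T3R1. T2R1 and T1R1 lay on slide 2, where the median difference of all 2067 regions from control was 0.48 and 0.32. Only 2 of the 7 had another probe detected in every heart. In chr8:122712014-122732520_R the other 2 such probes differed by -0.18 and -0.06 in T3R1, and in chr9:65376063-65390480_R the other differed by -0.21, so the probes of these regions did not rise together.

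One region fell, and all of its detected probes fell together. It was chr1:52507332-52514490_R, which lies 642 bp from the nearest probe of Nab1, a corepressor of the EGR transcription factors, on the same strand. Its levels were 2.57, 2.44, 2.33 and 2.36 in control, 2.39, 2.49, 2.31 and 2.41 in T1R1, and 2.52, 2.46, 2.34 and 2.40 in T2R1. In T3R1 they were 1.49, 1.90, 1.83 and 1.66, below all 12 other hearts. The fall was -0.70 (SE 0.09) against control with a limma adjusted p of 0.00978. Against T1R1 it was -0.68 and against T2R1 -0.70, with limma adjusted p-values of 0.00031 and 0.00015. The 3 probes of the region fell by -0.70 to -0.63 against control. Nab1 itself differed by -0.45 with a limma adjusted p of 0.133, and region and gene correlated at r = 0.71 over 16 arrays.

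**Figure D1:**
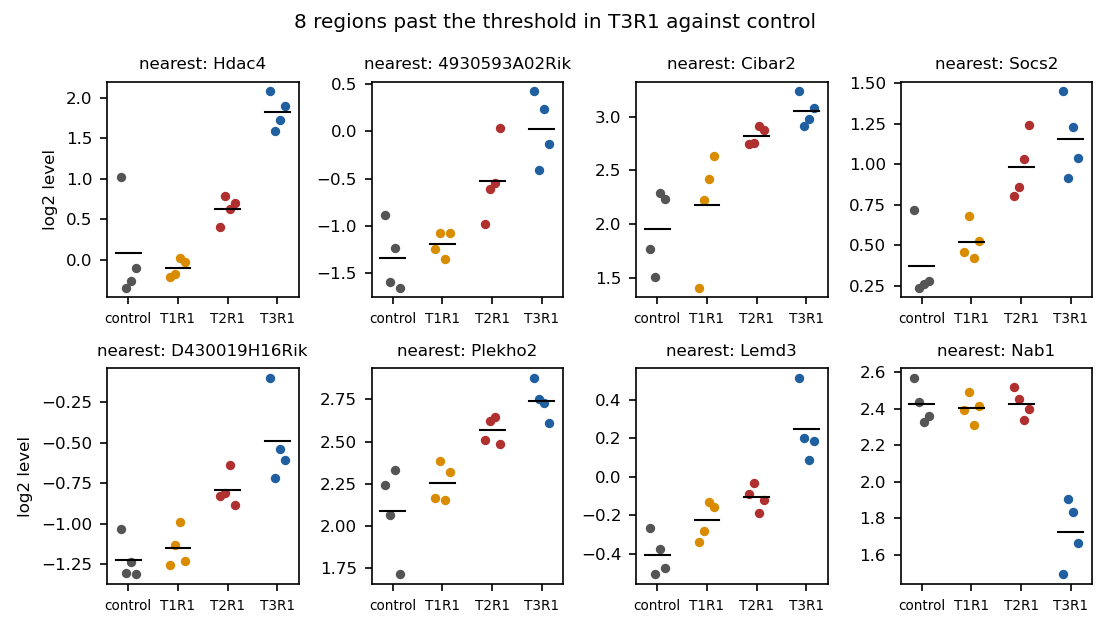
Relative log2 intensity in each of the 16 hearts for the regions called in T3R1 against control, 1 point per heart, a line at each group mean, and each panel titled by the nearest named gene on the array. The 4 T3R1 hearts of chr1:93812836-93816128_F, nearest to Hdac4, lie between 1.60 and 2.08, and those of chr1:52507332-52514490_R, nearest to Nab1, between 1.49 and 1.90, below all other hearts.

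These calls rest on single controls. Leaving out control replicate 2 gave 0 calls, and fitting only the control and T3R1 arrays gave 0 as well. Leaving out control replicate 1 gave 519 calls, 53 higher and 466 lower, against 29.4% of all features, and the 8 regions above were among the 519.

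Fibroblast markers moved with T3R1. Of the 9 on the list, 4 were higher in T3R1 than in control, against 0.506% of all features, with Col1a2, a collagen chain, at 1.81 and a limma adjusted p of 0.0232. The log2 of their summed level ranged from 8.26 to 9.05 in control and from 9.17 to 9.51 in T3R1, and from 8.04 to 8.25 in T1R1 and 8.50 to 8.61 in T2R1. Their part in the T3R1 results was not tested. In whole hearts, fewer cells of a type and less RNA per cell cannot be told apart. The 10 cardiomyocyte markers were detected in every heart, with summed levels of 12.1 to 13.2 in control and of 12.4 to 13.1 in the exposed groups, and none was called in any comparison with control.

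One region was set apart by control replicate 1. In chr9:14460976-14488051_F that heart was at 1.31 and the other controls at -2.10, -2.21 and -2.07. T3R1 hearts were at 1.06, 0.90, 1.29 and 0.79, T1R1 hearts at -1.61, -1.16, -2.22 and -2.43, and T2R1 hearts at -1.60, -0.13, -0.93 and -0.78. Control replicate 1 thus lay with the T3R1 hearts and above all 11 others. T3R1 exceeded T1R1 by 2.87 (SE 0.63), 7.29-fold, with a limma adjusted p of 0.00511. Against control the difference was 2.28 with a limma adjusted p of 0.0757, and without control replicate 1 it was 3.13 with 6.47e-05.

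The comparisons of T1R1 and T2R1 with control run across slides. In T1R1, 504 regions were called, 24.4% against 9.85% of all features, with 494 higher against 7.74% of all features and 10 lower against 2.11%. In T2R1, 882 were called, 42.7% against 18.4% of all features, with 868 higher against 14.8% of all features and 14 lower against 3.59%. The median difference of the regions was 0.32 in T1R1 and 0.48 in T2R1, against -0.01 and 0.02 over all features. Named genes detected in every heart, 13746 in number, were called in 6.66% and 12.2%, with medians of -0.06 and -0.05. LincRNA regions that were detected in part, 979 in number, were called in 19.8% and 39.3%. Under this scaling a high share of calls was thus not particular to detection in every heart. With quantile normalization 43 and 125 of these 979 were called, against 1433 and 3058 of all 22748 features. Of the 2067 regions detected in every heart, 301 and 694 were called in that setting.

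The direction depended on the scaling. With each array scaled to its median instead of its 75th percentile, the median over all features moved to -0.44 in T1R1 and -0.37 in T2R1, and that of the regions to -0.12 and 0.09. Both scalings subtract 1 value per array, so the distance between the regions and all features was bound to stay. Of the regions' calls, 136 of 542 were then higher in T1R1 and 340 of 604 in T2R1. No share of all features called is given for that scaling. Without control replicate 1, 443 of 565 calls were higher in T1R1 and 763 of 863 in T2R1, where 17.8% and 24.3% of all features were called. With quantile normalization 276 of 301 and 659 of 694 were higher. Over all 22748 features, 750 of 1433 and 1886 of 3058 calls were higher in that setting.

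**Figure D2:**
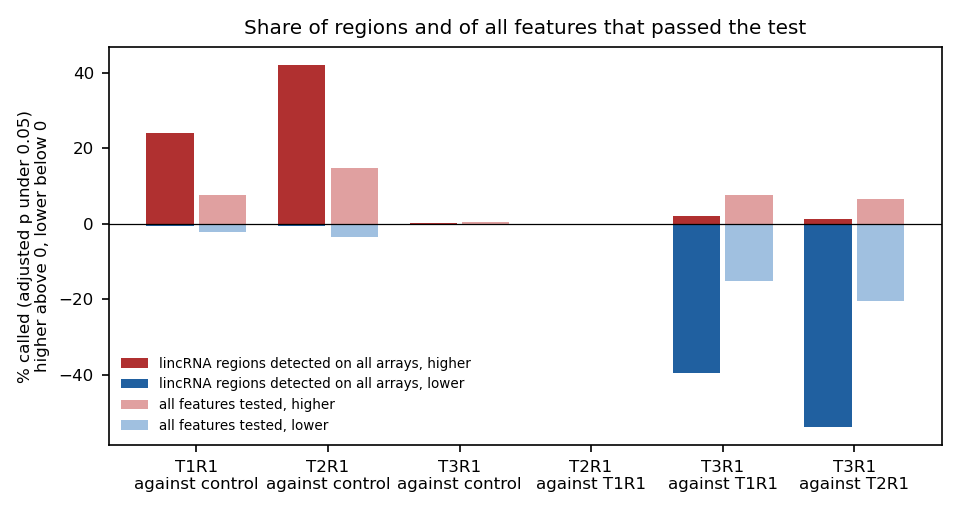
Percent of regions or features called at an adjusted p under 0.05 in each comparison, for lincRNA regions detected in every heart and for all features, with higher calls as bars above 0 and lower calls as bars below 0. In T2R1 against control the regions reach 42.7% in both directions together and all features 18.4%, whereas in T3R1 against control they reach 0.387% and 0.695%.

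Array by array, the regions split by slide. The median of the regions' levels minus their control mean was 0.32, 0.27, 0.30 and 0.32 on the T1R1 arrays and 0.42, 0.39, 0.52 and 0.55 on the T2R1 arrays. It was -0.27, -0.13, -0.14 and 0.02 on the T3R1 arrays. Among the controls it was -0.35 for replicate 1 and 0.19, 0.09 and 0.06 for the others. Every array of slide 2 lay above every array of slide 1 by this measure. With each array scaled to its median that order did not hold, as the regions' median level was 2.03 to 2.43 on the arrays of slide 2 and 1.72 to 2.31 on those of slide 1.

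**Figure D3:**
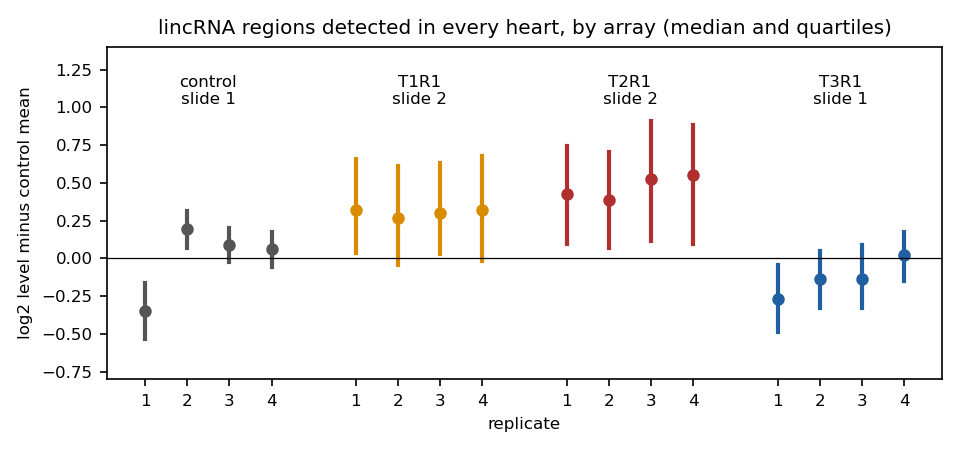
Median difference from the control mean over the 2067 regions, on the log2 scale, for each array, with the lower and upper quartile of the regions. The 8 arrays of T1R1 and T2R1 lie between 0.27 and 0.55, and control replicate 1 at -0.35 is the lowest.

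For single regions, 487 of 2067, 23.6%, had all 8 arrays of slide 2 above all 8 of slide 1, against 6.71% of all features and 3.52% of named genes detected in every heart. Only 4 regions showed the reverse order. The median difference between slides was 0.45 for the regions and -0.03 for those genes.

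The largest rises started from levels below the 75th percentile in control hearts. The 8 largest among regions whose groups did not overlap ran from 1.33 to 1.65 in T1R1, with control means of -3.68 to -1.17, and from 1.51 to 1.71 in T2R1, with control means of -3.68 to -1.87. The largest in T2R1 was that of chr4:57372663-57377164_R, and 1 heart set its size. Its levels were -2.99, -2.21, -2.48 and -2.63 in control, -1.47, -1.62, -1.22 and -2.22 in T1R1, -1.48, -1.60, 1.24 and -1.65 in T2R1, and -2.81, -2.45, -3.23 and -2.67 in T3R1. T2R1 replicate 3 lay far above all other hearts. The rise was 1.71 (SE 0.50) with a limma adjusted p of 0.0291, and without that heart it was 1.00 with 0.016. In T1R1 it was 0.94 with a limma adjusted p of 0.257.

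The largest rise in T1R1 showed less spread between hearts. In chr3:52206874-52207385_F, an interval of 512 bp, control levels were -3.64, -3.36, -3.81 and -3.91 and T3R1 levels -4.05, -3.60, -4.03 and -3.26. T1R1 levels were -2.11, -2.11, -1.92 and -1.97 and T2R1 levels -2.33, -2.08, -1.95 and -1.92. All hearts of slide 2 lay above all of slide 1. The rise was 1.65 (SE 0.17) in T1R1 and 1.61 (SE 0.17) in T2R1, with limma adjusted p-values of 0.000537 and 0.000166. The nearest gene on the array, Foxo1, lies 56632 bp away and correlated with the region at r = -0.43.

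Similar values were seen in 3 further regions. In chr15:99765243-99783300_F, which covers Fam186a on the opposite strand, the rise was 1.52 in T1R1 and 1.64 in T2R1 (SE 0.21), and T3R1 differed from control by -0.29. Its control levels were -3.57, -2.96, -2.89 and -3.69, and T2R1 levels were -1.95, -1.73, -1.27 and -1.60. In chr2:67834535-67834914_F, 380 bp long, the rise was 1.38 and 1.39 (SE 0.15), from -2.11, -1.79, -1.88 and -2.0 in control to -0.51, -0.61, -0.70 and -0.44 in T1R1. In chr12:12768528-12849976_F it was 1.35 and 1.47 (SE 0.15), and its second detected probe rose by 0.94 and 1.14. No control heart overlapped with T1R1 or T2R1 in any of these, and control lay on the other slide. For T1R1, and in chr15:99765243-99783300_F for T2R1 too, the rule that named the regions demanded this separation.

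Across the regions the rises were larger on dimmer probes. Regions with levels from -4 to -2 had medians of 0.53 in T1R1 and 0.67 in T2R1, and 56.5% of them differed among the 4 groups. Regions above 1 had medians of 0.00 and 0.16, and 23.6% differed. Spearman's rho between a region's level and its slide difference was -0.39 over 2067 regions, which share the same 16 arrays. Named genes detected in every heart with levels from -4 to -2 had medians of 0.25 and 0.22.

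The difference between slides also moved with the bases of the probe. Regions whose probe held under 15% cytosine differed between slides by a median of 0.03, and the next classes, from 15% to 30% in steps of 5, by 0.11, 0.33 and 0.51. Regions whose probe held 30% cytosine or more differed by 0.57. Named genes detected in every heart went from -0.08 to 0.18 over the same classes. Spearman's rho with the number of cytosines was 0.30 for the regions and 0.29 for the genes. Within slide 1 the difference of T3R1 from control stayed between -0.11 and -0.15 in every class. Within slide 2 the difference of T2R1 from T1R1 went from 0.01 in the lowest class to 0.18 in the highest. The part of probe composition in the T1R1 and T2R1 results was not tested.

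**Figure D4:**
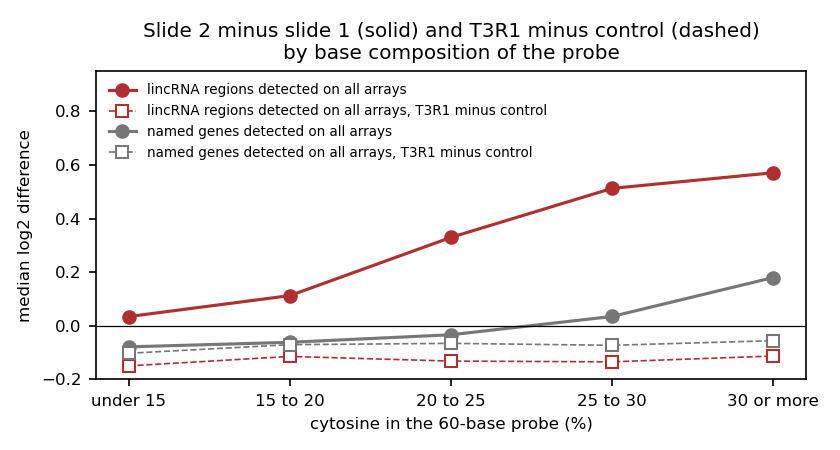
Median log2 difference by the cytosine content of the probe, in percent, for lincRNA regions and named genes detected in every heart: slide 2 minus slide 1 as solid lines and T3R1 minus control as dashed lines. The regions rise from 0.03 to 0.57 between slides and stay between -0.15 and -0.11 within slide 1.

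Probes of a single region share an interval, though not a position within it. The 800 regions with 2 or more detected probes gave 2622 pairs, whose median r over 16 arrays was 0.68. In 2403 pairs the probes differed in their number of cytosines, and in 58.8% of these the probe with more had the larger slide difference. In 749 pairs, 1 probe had at least 6 more cytosines than the other, and in 65.7% of them that probe had the larger slide difference. Over all 749 pairs the median excess of that probe was 0.10. CCTC or CTCC stood in 60.9% of the regions' probes, in 34.4% of all lincRNA probes and in 32.2% of the probes of named genes detected in every heart, all read on the probe strand only, where both motifs can overlap. Regions with it had a median slide difference of 0.55 and regions without it 0.23. Both motifs are mostly cytosine and were chosen after these values had been seen, so this contrast is no separate result. A motif match is a description and not a binding site.

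Few regions fell in T1R1 or T2R1. The region chr15:8463685-8494960_R, 31276 bp long, fell in both. Its levels were 0.16, 0.22, 0.27 and 0.06 in control and -0.05, 0.09, 0.10 and 0.01 in T3R1. They were -0.43, -0.62, -0.30 and -0.36 in T1R1 and -0.22, -0.48, -0.37 and -0.26 in T2R1, below all hearts of slide 1. The difference was -0.61 (SE 0.09) in T1R1 and -0.51 in T2R1, with limma adjusted p-values of 0.00148 and 0.0015. Its 3 probes fell by -0.61 to -0.49 in T1R1 and by -0.51 to -0.35 in T2R1. Its nearest gene, Slc1a3, a glutamate transporter, lies 89276 bp away, and r was 0.49.

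The region chr15:32167516-32174427_R holds Snhg18, a host gene of small nucleolar RNA, and all 5 of its probes were detected in every heart. Control levels were 1.68, 1.26, 1.17 and 1.28, T1R1 levels 0.75, 0.94, 0.77 and 0.83, T2R1 levels 1.07, 0.99, 1.02 and 0.87, and T3R1 levels 1.56, 1.53, 1.81 and 1.70. T1R1 and T2R1 hearts lay below all hearts of the other groups. The difference from control was -0.52 (SE 0.11) in T1R1 and -0.36 in T2R1, with limma adjusted p-values of 0.00822 and 0.0321. In T3R1 it was 0.30 with a limma adjusted p of 0.13, and 0.41 with 0.00352 without control replicate 1. Tested singly, 2 of the 5 probes were called lower in T1R1 and 1 in T2R1. T3R1 exceeded T1R1 by 0.83 and T2R1 by 0.66, with limma adjusted p-values of 0.000212 and 0.0006, and all 5 probes were called in both comparisons. A second region, chr15:32167516-32174417_R, ends 10 bp short of the first on the same strand. Its 4 detected probes differed from control by -0.36 to 0.23 in T1R1 and by -0.25 to 0.32 in T2R1, and 0 were called. In T3R1, 3 of the 4 were called higher than in T1R1 and 3 higher than in T2R1. The array's own probe for Snhg18 correlated with the region at r = 0.94.

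In the comparison of T2R1 with T1R1, which runs within slide 2, limma called 0 of the regions and 0 of all 22748 features, 0%. An unadjusted p under 0.05 was found in 195 regions, 9.43%, against 7.84% of all features. The median difference was 0.13 for the regions and 0.05 over all features.

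T3R1 differed from both other exposures in many regions, again across slides. Against T1R1, 861 regions were called, 41.7% against 22.9% of all features, with 45 higher against 7.65% and 816 lower against 15.2%. The median was -0.43 against -0.07. Against T2R1, 1136 were called, 55.0% against 26.9%, with 25 higher against 6.58% and 1111 lower against 20.3%. The median was -0.59 against -0.09. With each array scaled to its median, 237 of 550 and 151 of 716 calls were higher, and the medians over all features were 0.33 and 0.26. The share of all features called is not given for that scaling. Without control replicate 1, 1070 and 1318 regions were called, against 31.3% and 36.6% of all features. Over all 4 groups the F test called 1030 regions, 49.8% against 26.8% of all features.

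Several regions carry the names of known noncoding RNAs. H19, an imprinted transcript that is abundant in the embryo, was detected by all 5 of its probes at chr7:149761435-149764019 on the reverse strand. Its levels were 1.91, 2.46, 2.61 and 2.15 in control, 2.27, 2.98, 2.81 and 2.96 in T1R1, 2.33, 2.27, 2.48 and 2.31 in T2R1, and 2.61, 3.01, 2.82 and 2.83 in T3R1. All T3R1 hearts lay above all controls, though the nearest pair was equal at 2 decimals, while T1R1 hearts overlapped with control. The differences from control were 0.47 (SE 0.17) in T1R1, 0.07 in T2R1 and 0.54 in T3R1, with limma adjusted p-values of 0.0932, 0.837 and 0.0992. None of the 3 passed. The F test gave a limma adjusted p of 0.0454, which lay between 0.00906 and 0.0896 over 26 other settings and did not pass in 14 of them. The 5 probes gave 0.34 to 0.47 in T1R1, -0.07 to 0.07 in T2R1 and 0.44 to 0.57 in T3R1.

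NEAT1, the RNA scaffold of nuclear paraspeckles, was bright, with control levels of 4.69, 5.01, 4.97 and 5.20. Its 5 probes differed from control by -0.39 to -0.25 in T1R1 and by -0.44 to -0.37 in T2R1, and none was called. The 3 probes of NEAT2, also known as Malat1 and found at nuclear speckles, differed by -0.02 to 0.10 in T1R1 and T2R1. The 5 probes of TUG1 differed by -0.24 to 0.10 there. Neither was called in a comparison with control.

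HOTAIR, transcribed from the HoxC cluster, was detected by 1 of its 5 probes. Its control levels were -1.85, -1.17, -1.55 and -1.48 and its T3R1 levels -2.24, -1.95, -1.76 and -1.44. T1R1 levels were -0.68, -0.66, -0.81 and -0.68 and T2R1 levels -0.57, -0.58, -0.30 and -0.65, above all hearts of slide 1. The rise was 0.80 (SE 0.16) in T1R1 and 0.99 in T2R1, with limma adjusted p-values of 0.00724 and 0.00107. As a single probe it cannot show whether the transcript as a whole rose.

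The array also holds separate probes for known noncoding RNAs that fall inside the intervals, among them H19, Neat1, Malat1 and Tug1. The pairs below thus include regions set beside a probe of the RNA they are named for, such as NEAT1 with Neat1 at r = 0.98. On the same strand, 29 regions and 18 such genes made 30 pairs with a median r of 0.69 over 16 arrays, from -0.22 to 0.98. On the opposite strand, 15 regions and 14 genes made 16 pairs with a median r of -0.06, from -0.70 to 0.93. Genes and regions recur between pairs and share arrays, so these are descriptions. Pvt1, a transcript next to the gene Myc, was followed by 3 regions on its strand with r of 0.75 to 0.90. They differed from control by 0.46 to 0.75 in T1R1 and by 0.70 to 1.23 in T2R1, and the Pvt1 probe by 0.63 and 0.61 with limma adjusted p-values of 0.0247 and 0.0175. On the opposite strand, chr15:61984389-62102500_R also followed Pvt1, with r of 0.72, and differed by 0.18 and 0.49. These comparisons with control run across slides.

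Some regions that run antisense to known transcripts moved with them, and others moved apart. The r was 0.93 opposite to Snhg17 and 0.72 opposite to Pvt1. The examples below, opposite to Tug1 and Gas5, had the lowest r of the 16 pairs. Opposite to Tug1, chr11:3538125-3554450_F differed from control by 0.92 in T1R1 and 0.99 in T2R1, while the probe of Tug1 differed by 0.02 and -0.20, and r was -0.66. These are the values of its brightest probe. Its 5 detected probes differed by 0.13 to 0.92 in T1R1, where 1 was called, and by -0.04 to 0.99 in T2R1, where 2 were. Opposite to Gas5, which hosts small nucleolar RNA, chr1:162965309-162970704_R differed by 0.28 and 0.88, its other detected probe by 0.54 and 0.76, Gas5 by -0.26 and -0.31, and r was -0.70. The tests of Tug1 and Gas5 against control did not pass. All of these differences from control run across slides.

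Where 2 or more probes of a region were detected, they were asked to pass together. In T1R1 against control all detected probes were higher in 40 of the 800 regions and all lower in 1. In T2R1 these were 113 and 2, and in T3R1 0 and 1. Among the regions called in T2R1, 407 other detected probes were available, of which 204 were called the same way, 1 the opposite way, and 156 had the same sign without passing. In T1R1 these numbers were 194, 68, 0 and 113. The region chr15:79764481-79809909_F, 15817 bp from the nearest probe of Cbx7, a Polycomb protein, had 4 detected probes that rose by 0.66 to 1.54 in T2R1. Of the regions that fell in T2R1, chr16:90038086-90127636_F also fell by both of its probes, by -0.36 and -0.27.

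**Figure D5:**
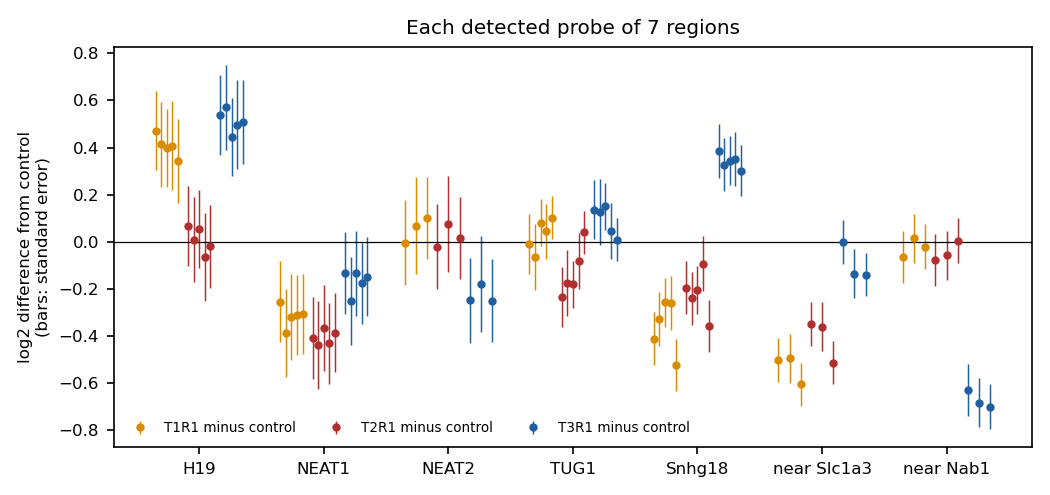
Log2 difference from control for each detected probe of the named regions with several probes, 1 point per probe and exposure with its standard error as a bar. The 3 probes of chr1:52507332-52514490_R lie between -0.70 and -0.63 in T3R1, and the 5 probes of H19 between 0.44 and 0.57.

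Both strands of an interval were detected in 341 intervals. In T1R1 against control both strands were called the same way in 15, the opposite way in 1, the forward strand alone in 55 and the reverse strand alone in 82. In T2R1 these were 58, 3, 80 and 89. Across the 341 intervals the differences of both strands correlated at r = 0.11 in T1R1 and 0.06 in T2R1. The levels of both strands of an interval had a median r of 0.56 over the 16 arrays, and of 0.32 after each group's mean was subtracted. In chr13:62734450-62785325 the forward probe rose by 1.37 in T1R1 and 1.67 in T2R1 (SE 0.16), from -3.42, -2.53, -3.0 and -3.17 in control to -1.51, -1.53, -1.93 and -1.69 in T1R1. The reverse probe, at -2.92, -2.94, -3.15 and -3.17 in control and -2.88, -2.90, -2.35 and -2.92 in T1R1, differed by 0.28 and 0.23 with limma adjusted p-values of 0.307 and 0.389.

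A named gene lay within 100 kb of 1780 regions, and its probe lay inside 374 of them. Inside the interval, region and gene had a median r of 0.53 over 16 arrays where they shared the strand, in 220 regions, and of 0.05 where they did not, in 154. For genes from 20 to 100 kb away the median was 0.03 to 0.04. All pairs share the same arrays.

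Lists of genes that make or remove noncoding RNA were set beside the regions. Of 71 genes on a list of known noncoding RNAs 37 were tested, of which 2 were higher and 1 lower in T1R1 than in control, 4 higher and 0 lower in T2R1, and 0 in T3R1. That is 3 of 37 in T1R1 and 4 of 37 in T2R1, where 9.85% and 18.4% of all features were called, so the list gave no higher share than the background. The probe of Terc, the RNA component of telomerase, was higher by 0.98 in T1R1 and 0.99 in T2R1. The region that holds Terc on the same strand, chr3:96215885-96218756_R, differed by -0.05 and 0.07, and its r with that probe was 0.15. Among 23 tested genes of nuclear RNA decay only C1d, a cofactor of the exosome, was called, higher by 0.79 and 0.87. Of 18 genes of 3′ end processing, Pcf11, which ends transcription, was higher by 0.70 and 0.98, and Cstf3 was lower by -0.45 in T1R1. None of 12 tested genes of the Integrator complex, 11 of PRC2, 11 of the paraspeckle and 9 of histone H3 lysine 4 methylation was called against control. Of 6 genes of lysine 36 methylation, Setd2, the main methyltransferase of that mark, was lower by -0.24 in T2R1. Each of these lists had a share of calls near or below the 9.85% and 18.4% of all features in T1R1 and T2R1. The single calls are therefore no result about the lists, and they run across slides. The medians of these lists against control lay between -0.21 and 0.04, against 0.32 and 0.48 for the regions in T1R1 and T2R1.

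Markers of other cell types were called in T1R1 and T2R1. In T1R1, 4 of 9 tested adipocyte markers and 4 of 9 nerve markers were lower, against 2.11% of all features. In T2R1, 3 nerve markers were lower, against 3.59% of all features, and 4 of 6 tested neutrophil markers higher, against 14.8%. The log2 summed level of the neutrophil list ranged from 2.16 to 3.26 in control, 2.59 to 4.76 in T1R1 and 3.73 to 5.51 in T2R1, and that of the nerve list from 3.09 to 3.78, 2.51 to 3.20 and 2.66 to 3.37. That of the adipocyte list ranged from 7.72 to 8.78, 7.07 to 8.29 and 7.20 to 7.95. The part of these cells in the regions' differences was not tested.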

How the data were processed

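RNA of 16 mouse hearts was read on 1-colour Agilent arrays. Per the file headers, Feature Extraction 10.7.3.1 made the processed intensity, with the background subtracted and no normalization between arrays, and set the flags; design positions are in mm9. The mean and background intensity deposited with it served the normexp alternative. The authors deposited a table of log2 values, used as an alternative, whose ranks equal those of the mean intensity; the sources used here do not give how it was made.

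Spots flagged as outliers were left out, log2 values were taken relative to their 75th percentile on the same array, and repeated spots were averaged. To be tested, a probe had to pass the background flag on the 4 arrays of any group. Each gene name or region was represented by its brightest probe: 16783 named genes, 3046 lincRNA regions and 2919 unnamed transcripts, with 102 missing values, 7 of them in the regions described. Names were updated through RefSeq accessions for 26762 probes.

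limma 3.58.1 in R 4.3.3 fitted 4 groups, and two-sided p-values were adjusted by Benjamini-Hochberg over all features. The labels do not say that the hearts' replicate numbers pair them. Simulated data held 22748 features, with 67, 67 and 66 of them changed in T3R1 by 0.5, 1 and 2 (log2). The fit for T3R1 against control found 23.9%, 64.2% and 95.5% of these. The simulated noise was independent between features, so no array shifted many features together. These shares need not hold for the real arrays.

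Regions were named where they were among the 8 largest rises or falls against control (4 between exposures) that passed with groups not overlapping, had 1 of the 8 smallest F test p-values, held a listed noncoding RNA or were read on both strands. Regions outside that rule that are named for agreement between probes, and regions that carry a gene name, were chosen after their values were seen. The regions, lists and rules were all chosen with earlier results of these data known.

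Alternatives covered scaling, background correction, the filter, single probes, the groups in the fit, the replicate block and leaving out each array. Quantile normalization without control replicate 1 was chosen after seeing the data.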

Additional observations from a re-analysis of the deposited data

Results flagged for a closer look

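In groups of 4 hearts, the level of 1 heart stood apart from the other 3 in 33 of 444 groups examined over the named regions, 7.43%, where chance gives about 1 in 20. Control replicate 1 was that heart in 12 of the 33.

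Control replicate 1 stood apart in BRN1-A at -3.51 against -2.51 to -2.33, chr10:94900849-94928059_R at 0.72 against 0.24 to 0.28 and chr12:4469975-4482792_R at -3.56 against -2.77 to -2.63. It did so too in chr15:32167516-32174417_R at 1.76 against 1.24 to 1.33, chr15:77164450-77201325_F at 0.82 against -0.35 to -0.31 and chr17:12990484-13018375_F at -1.35 against -0.55 to -0.51. So it did in chr19:5771425-5848475_F at 1.64 against 2.14 to 2.23, chr2:156213798-156216885_R at 4.88 against 5.46 to 5.52 and chr3:38320928-38341869_F at -1.99 against -1.66 to -1.60. The last were chr7:99879368-99889978_F at -2.54 against -1.06 to -0.83, chr9:14460976-14488051_F at 1.31 against -2.21 to -2.07 and chr9:56391562-56392142_F at -1.54 against -2.05 to -1.99. T1R1 replicate 3 stood apart in chr11:112898724-113062945_R at -0.52 against 0.17 to 0.26, chr13:62734450-62785325_R at -2.35 against -2.92 to -2.88 and chr13:83860985-84012285_F at -1.70 against -1.18 to -1.10. It did so too in chr4:131905739-131910814_R at -1.0 against -1.87 to -1.75. T1R1 replicate 4 stood apart in chr12:4469975-4482792_F at -1.16 against -1.27 to -1.26, chr17:12990484-13018375_F at -0.69 against -0.48 to -0.43 and chr5:74487385-74497428_F at 2.14 against 2.71 to 2.80. It did so too in chr9:56391562-56392142_F at -3.36 against -2.09 to -1.99. T2R1 replicate 3 stood apart in chr4:129497990-129515290_F at -2.09 against -2.03 to -2.02, chr4:57372663-57377164_R at 1.24 against -1.65 to -1.48 and chr5:33174092-33200792_F at -0.55 against -0.79 to -0.76. It did so too in chr8:94849929-94870274_R at -0.13 against -0.34 to -0.30. Control replicate 2 stood apart in NEAT2 at 0.057 against -0.33 to -0.26, chr17:22420025-22457650_R at -1.05 against -0.87 to -0.84 and chr9:88575075-88611650_R at 3.32 against 3.41 to 3.42. T3R1 replicate 1 stood apart in chr13:62734450-62785325_R at -3.36 against -2.76 to -2.67 and chr14:62263564-62307496_F at 5.22 against -3.31 to -2.59. T3R1 replicate 3 stood apart in chr11:3538125-3554450_F at -1.06 against -1.48 to -1.42. T2R1 replicate 4 stood apart in chr17:13008796-13023201_F at -1.73 against -1.57 to -1.56. T2R1 replicate 1 stood apart in chr4:131905739-131910814_R at -1.68 against -1.52 to -1.50. T3R1 replicate 4 stood apart in chr5:74487385-74497428_F at 3.09 against 2.56 to 2.61.

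By the tested contrast T3R1 differed from T1R1 in 861 lincRNA regions detected in every heart, 41.7% against 22.9% of all features. It differed from T2R1 in 1136, 55% against 26.9% of all features. Slide and exposure cannot be told apart in either. The contrast of T2R1 with T1R1, within slide 2, called 0 regions and 0 of all features.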

How the results depend on the processing

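The count of regions called in T1R1 against control fell from 504 to 301 with quantile normalization, 234 with normexp background correction, 319 in the authors' deposited values, 250 with only the compared arrays in the fit, and 323 with quantile normalization without control replicate 1. For T3R1 against control the 8 calls became 2 after scaling to the array median, 15 in the authors' deposited values, 3 with no filter, 29 with only features detected on all arrays, 5 with the replicate block, 0 with only the compared arrays, and 425 with quantile normalization without control replicate 1. Scaling to the array median gave 550 calls for T3R1 against T1R1 and 716 for T3R1 against T2R1; the cause was not tested for any of these. Leaving out 1 array in turn gave 350 to 565 calls in T1R1, 676 to 893 in T2R1 and 0 to 519 in T3R1 against control, the ends of the last without control replicates 2 and 1. It gave 2 without control replicate 3 or 4 and 3 without T3R1 replicate 1 or 3. T2R1 against T1R1 stayed at 0 under every alternative run, T3R1 against T1R1 ranged from 646 to 1070 and against T2R1 from 895 to 1318, and the F test from 866 to 1374. In T1R1, chr15:97925615-97926199_F turned from -0.58 to 0.075 (limma adjusted p 0.909) with only features detected on all arrays, where another probe stands for it. With the replicate numbers as a block the counts were 508 in T1R1 and 895 in T2R1, and 5 of 16 arrays correlated best with their own number, so the numbers gave no pairing. Of the regions called in T3R1 against control, all 8 lost the call without control replicate 2 and with only the compared arrays. The number of arrays limits the precision, and dim probes lie near the background.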
